A study of Homo sapiens with 9 samples.

Results

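RPL22L1 and RPL22 are 2 of the 78894 genes in the deposited tables of 9 Hap1 libraries, and they encode paralogous proteins of the large ribosomal subunit. RPL22L1 was selected on its measured level, which differed between cells with the H448L and the R227Q form of SARS2, and RPL22 was added as its paralog. The values that chose RPL22L1 are therefore given as a description, without a test, and so are the differences of each variant from WT, because they are correlated with that choice. The exception is a weighted mean of the variants against WT, built to be uncorrelated with it. Genes were taken by name from both tables, and RPL22L1 and RPL22 both passed the filter on low counts, with 16908 genes tested in all.

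Either protein can fill the same place on the outer surface of the 60S subunit, outside the catalytic core. RPL22 also binds structured RNA away from the ribosome. In mouse it binds the Rpl22l1 transcript and lowers its level, and in human cells it acts on the splicing of RPL22L1 and MDM4. Loss of RPL22 is known to raise RPL22L1. In mouse T cells loss of Rpl22 has been linked to Lin28b, and in zebrafish the paralogs have opposing effects on smad1 during blood formation.

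Hap1 cells are near haploid and descend from a human chronic myeloid leukaemia cell line. In all 9 libraries endogenous SARS2, which encodes mitochondrial seryl-tRNA synthetase, was deleted, and an inducible FLAG-tagged SARS2 copy was kept off by growth without doxycycline for 6 days. Each group also carried a constitutive myc-tagged SARS2 copy that the labels write with "int14", a term they do not explain, and this copy was H448L, R227Q or WT. Each group had 3 libraries of poly-A RNA, and the labels do not say that these came from separate cultures, so p-values measure only the spread between these libraries.

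The column names place the libraries in submissions to a sequencing service: 4LJFHN holds H448L 1 to 3, R227Q 2, R227Q 3 and WT 3, and SDKYMR holds R227Q 1, WT 1 and WT 2. Total counts ran from 9900892 to 12991050 per library. Levels are in CPM, the share of the library's total count scaled to 1000000. The deposited SARS2 level was 7.88 to 8.68 CPM in H448L, 7.09 to 8.68 CPM in R227Q and 6.20 to 8.54 CPM in WT, and no genotype difference passed the test. The tables do not separate the copies. Defining blood markers were near 0, as the 5 genes PTPRC, CD34, GATA1, SPI1 and CD3E summed to 0.891 to 1.01 CPM in H448L, 0.891 to 1.33 CPM in R227Q and 0.814 to 1.48 CPM in WT. The 4 epithelial markers summed to 78.8 to 89.7 CPM in H448L, 84.5 to 92.0 CPM in R227Q and 77.98 to 81.4 CPM in WT, nearly all of it KRT18 and KRT8. The 5 fibroblast markers summed to 53.1 to 63.6 CPM in H448L, 23.7 to 63.8 CPM in R227Q and 18.9 to 51.1 CPM in WT, with the low values in SDKYMR. Their part in the results below was not tested.

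RPL22L1 (ENSG00000163584) lies on the minus strand of chr3:170864875-170870483 and RPL22 (ENSG00000116251) on the minus strand of chr1:6185020-6209389 (GRCh38, GENCODE release 29). The tables also list 22 RPL22 pseudogenes. One of them, RPL22P1 (ENSG00000213178, chr3:169483671-169484080, minus strand), is an intronless copy with high counts. Whether reads of these genes can be told apart decides what their counts mean, so the same stretch of each is printed 5′ to 3′, bases 202 to 291 of the 387 coding bases of RPL22, from the GENCODE transcripts. Capitals mark bases that differ from RPL22.
RPL22: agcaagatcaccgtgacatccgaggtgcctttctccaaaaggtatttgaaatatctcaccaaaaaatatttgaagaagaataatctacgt
RPL22L1: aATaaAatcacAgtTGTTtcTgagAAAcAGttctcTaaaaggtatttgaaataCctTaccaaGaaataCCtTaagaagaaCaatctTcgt
RPL22P1: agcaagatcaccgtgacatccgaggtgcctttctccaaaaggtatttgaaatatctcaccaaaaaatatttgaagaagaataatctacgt

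RPL22L1 differed from RPL22 at 23 of these 90 bases, and RPL22P1 at 0. The stretch was chosen because it holds the longest run that the paralogs share, 17 bases at RPL22 coding positions 238 to 254. Over the 369 aligned coding bases the paralogs were identical at 246 (66.7%). RPL22P1 matched RPL22 at 363 of 375 aligned bases (96.8%), with one unbroken run of 293. Of the 2141 words of 50 bases in the RPL22L1 mRNA, 0 occurred in RPL22 transcripts and 15 (0.701%) in another gene, RPL22P13. Of the 2029 such words in the RPL22 mRNA, 0 occurred in RPL22L1 transcripts, but 327 (16.1%) occurred in other genes, 255 of them in RPL22P1. A read of that length in these mRNAs could thus be shared between RPL22 and RPL22P1 but not between RPL22 and RPL22L1.

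The deposited counts showed the same split. The RPL22L1 count was whole in 7 of 9 libraries, between 1472 and 2904.5, whereas the RPL22 count was whole in 0 of 9. Among all genes with a count, 70.4% (WT 1) to 72.5% (H448L 3) were whole in a library, so a whole count is usual. RPL22P1 stood at 275, 286 and 265 CPM in H448L, 169, 282 and 294 CPM in R227Q, and 164, 156 and 275 CPM in WT. Per 100 RPL22 counts this was between 30.6 and 33.6 RPL22P1 counts in all 9 libraries. RPL22P2 had 4.70 to 6.34 CPM, and the other 20 pseudogenes reached at most 0.404 CPM, 8 of them with no count in any library. The values of RPL22 and RPL22P1 are therefore uncertain as levels of separate genes. The tables count per gene, so the annotated transcripts of RPL22L1 (6) and RPL22 (7) are not separated either.

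RPL22L1 was lowest in R227Q, intermediate in H448L and highest in WT. Its level was 163, 159.9 and 178 CPM in H448L 1 to 3. In R227Q 1 to 3 it was 124, 131 and 120.1 CPM. In WT 1 to 3 it was 224, 203 and 211 CPM. The 3 groups did not overlap in CPM. This describes a gene chosen on these values, and the share of all genes so separated was not counted. Neighbouring groups in the order above lay further apart than the spread within groups. The means were 167 ± 9.67 CPM in H448L, 125 ± 5.40 CPM in R227Q and 212 ± 10.4 CPM in WT (SD, n = 3 each). In these bulk samples fewer cells of a type and less RNA per cell cannot be told apart.

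In a model with genotype and submission (edgeR), the fitted log2 difference of RPL22L1 was 0.41 ± 0.05 for H448L against R227Q, 1.33-fold (SE). It was −0.78 ± 0.05 for R227Q against WT, 0.583 times the WT level. For H448L against WT it was −0.37 ± 0.06, 0.775 times the WT level. The differences were of like size inside each submission. R227Q against WT gave −0.79 within SDKYMR and −0.76 within 4LJFHN, while within 4LJFHN H448L gave 0.40 against R227Q and −0.36 against WT (SDKYMR holds no H448L library). H448L against R227Q was the contrast that chose the gene, and 35 of 16908 genes (0.207%) passed the test in it, 0.0828% as higher and 0.124% as lower.

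**Figure D1:**
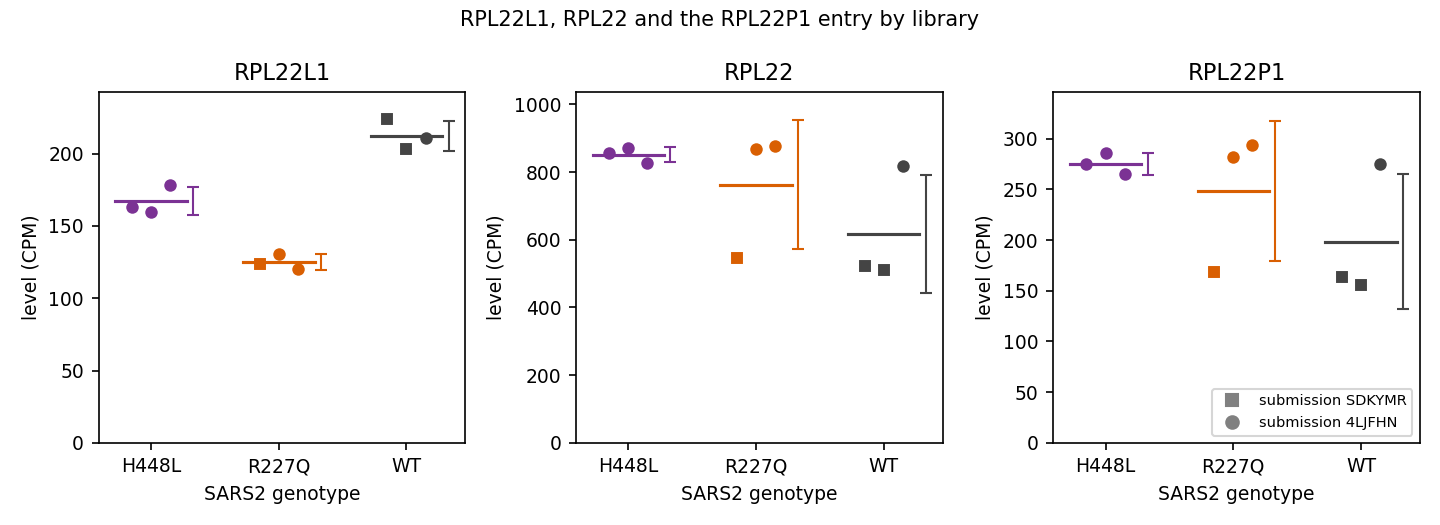
Levels of RPL22L1, RPL22 and RPL22P1 in CPM (vertical axes, from 0) in each library of H448L, R227Q and WT, with circles for submission 4LJFHN and squares for SDKYMR; lines are group means and bars are SD (n = 3). RPL22L1 separates by genotype, 120.1 to 131 CPM in R227Q below 159.9 to 178 in H448L and 203 to 224 in WT, while RPL22 and RPL22P1 separate by submission.

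The mean of the variants, with R227Q weighted 2 to 1 over H448L, was also set against WT. By the layout of the libraries this contrast has a correlation of 0 with H448L against R227Q, so RPL22L1 was tested in it. Both contrasts share the estimate of the spread, so the p is not fully independent of the choice of the gene. RPL22L1 was lower in the variants by a log2 difference of −0.64 ± 0.05, 0.641 times the WT level (quasi-likelihood test in edgeR, p adjusted by Benjamini-Hochberg = 4.5e-11). All 6 variant libraries, at 120.1 to 178 CPM, lay below all 3 WT libraries, at 203 to 224 CPM. How many of all genes separate in this way was not counted. In this contrast 2836 genes (16.8%) passed the test, 9.69% of all genes as lower, and 136 genes (0.804%) had a lower log2 difference than RPL22L1. For 4LJFHN against SDKYMR the fitted log2 difference of RPL22L1 was −0.05 ± 0.05 (SE), given without a test because the fit of H448L against R227Q depends on it.

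RPL22 did not pass the test between any of the genotypes. Its level was 857, 871 and 827 CPM in H448L. In R227Q it was 545 CPM in the SDKYMR library and 868 and 877 CPM in the 4LJFHN libraries. In WT it was 524 and 509.9 CPM in the SDKYMR libraries and 818 CPM in the 4LJFHN library. Within a submission every genotype lay close together, and every 4LJFHN library was above every SDKYMR library.

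The fitted RPL22 log2 difference was −0.04 ± 0.04 for H448L against R227Q (edgeR, adjusted p = 0.74; 95% interval −0.12 to 0.03). For R227Q against WT it was 0.07 ± 0.04 (edgeR, adjusted p = 0.17; 95% interval −0.00015 to 0.15), a comparison in which 17.4% of genes passed. For H448L against WT it was 0.03 ± 0.04 (edgeR, adjusted p = 0.73; 95% interval −0.05 to 0.12), and 7.97% of genes passed. The mean of the variants against WT gave 0.06 ± 0.03 (edgeR, adjusted p = 0.26; 95% interval −0.01 to 0.13). The intervals hold no RPL22 change as large as any of the 3 differences seen for RPL22L1. Without the submission term the estimates were 0.13, 0.28 and 0.41 for H448L against R227Q, R227Q against WT and H448L against WT, none of them past the threshold.

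Between submissions RPL22 was higher in 4LJFHN, at 853 ± 24.7 CPM (SD, n = 6), than in SDKYMR, at 526 ± 17.6 CPM (SD, n = 3). The log2 difference with genotype in the model was 0.62 ± 0.04, 1.54-fold (edgeR, adjusted p = 1.8e-14), in a contrast that 43.8% of genes passed, 20.8% as higher and 23% as lower. RPL22P1 differed by 0.73 ± 0.04 in the same direction (edgeR, adjusted p = 1.4e-14). Of 78 other ribosomal protein genes 77 had a lower submission difference than RPL22, and RPS29 at 0.66 was higher. What set the submissions apart is not given in the labels.

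The number of RPL22L1 counts per 100 RPL22 counts joined both patterns. It was 19.0, 18.4 and 21.5 in H448L. It was 22.7 in the SDKYMR library and 15.1 and 13.7 in the 4LJFHN libraries of R227Q, and 42.7 and 39.8 in the SDKYMR libraries and 25.7 in the 4LJFHN library of WT. These counts are not scaled to transcript length, so they compare libraries and not the abundance of the paralogs. Across submissions the H448L and R227Q values overlapped, and R227Q 1, from SDKYMR, was the R227Q library above H448L. Within 4LJFHN, where WT had 1 library, the values of the groups did not overlap, and H448L was 1.36-fold above R227Q and 0.761 times WT. The ratio holds the values that chose RPL22L1, so this is a description, and other gene pairs were not compared. R227Q was 0.558 times WT within 4LJFHN and 0.551 times WT within SDKYMR, where R227Q had 1 library.

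**Figure D2:**
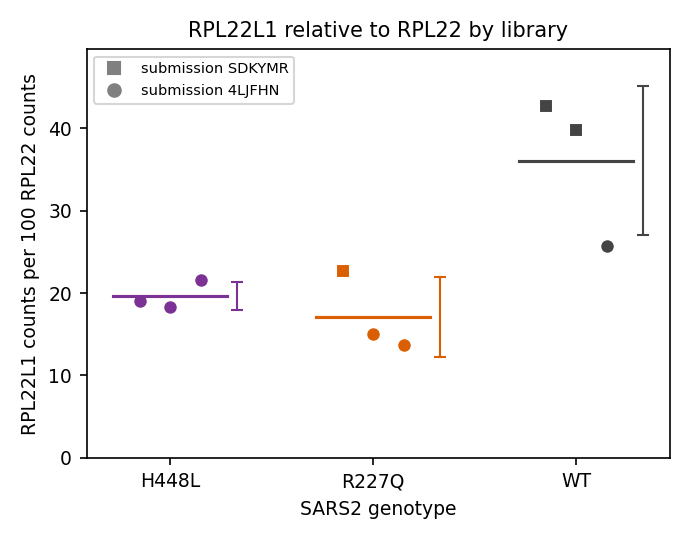
RPL22L1 counts per 100 RPL22 counts (vertical axis, from 0) in each library of H448L, R227Q and WT, with circles for 4LJFHN and squares for SDKYMR; lines are group means and bars are SD (n = 3). Within each submission WT is highest, at 25.7 in 4LJFHN and 39.8 to 42.7 in SDKYMR, and R227Q 1 lies with the H448L libraries at 22.7.

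RPL22L1 lay outside the range of the other ribosomal protein genes in each genotype comparison. In R227Q against WT its log2 difference of −0.78 was below all 78 of them, which ran from −0.21 for RPL24 to 0.28 for RPS3A with a median of 0.09. In H448L against WT, −0.37 was also below all 78, which ran from −0.17 for RPL15 to 0.32 for RPS3A with a median of 0.09. In H448L against R227Q, 0.41 was above all 78, of which RPL23A was highest at 0.12. RPL22 lay inside the range of the 78 genes in each of these comparisons. The places of RPL22L1, which was chosen on its variant difference, are given as a description, and the comparisons with WT share the WT libraries. Of all 16908 genes tested, 96.9% had a lower log2 difference than RPL22L1 in H448L against R227Q. The share was 4.61% in H448L against WT and 0.532% in R227Q against WT.

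Among 46 other large-subunit genes, 16 were higher and 4 lower in R227Q than in WT, and 26 did not pass (median 0.07, against 0.00 over all genes tested, of which 7.50% were called higher and 9.91% lower). The genes that were lower were RPL24, RPL35A, RPL15 and RPL29. Among 32 small-subunit genes 17 were higher, 1 was lower, RPSA, and 14 did not pass (median 0.12). In H448L against WT, 11 large-subunit genes were higher and 3 lower, RPL15, RPL24 and RPL14 (median 0.08, against 0.01 over all genes, of which 2.97% were called higher and 4.99% lower). Of the small-subunit genes 11 were higher and RPSA was lower (median 0.10). In H448L against R227Q 0 of the 78 passed with edgeR, which is near the share of all genes, 0.207%. With DESeq2 1 of the 78 passed, RPS28, where 54 of all genes did. With edgeR 10 of the 78 had an unadjusted p under 0.05. The share of all genes with such a p was not counted, here or below.

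These counts leaned on single libraries, and so did the calls over all genes. In R227Q against WT all calls fell from 2944 to 1278 without R227Q 1, 2558 without R227Q 3 and 1093 without WT 3. In H448L against WT all calls fell from 1347 to 926 without H448L 2, 771 without R227Q 1 and 253 without WT 3. With no submission term all calls numbered 312 in R227Q and 147 in H448L. Higher large-subunit genes in R227Q numbered 3 without R227Q 1, 10 without R227Q 3 and 8 without WT 3, and lower ones 2 without WT 3. Higher small-subunit genes in R227Q numbered 7 without R227Q 1 and 11 without WT 3, and RPSA was not called without R227Q 1, R227Q 2 or WT 3. In H448L higher large-subunit genes numbered 6 without H448L 2, 4 without R227Q 1 and 3 without WT 3, and lower ones 1, 1 and 0. Higher small-subunit genes in H448L numbered 5 without R227Q 1 and 4 without WT 3, and RPSA was not called without H448L 2, R227Q 1 or WT 3. With no submission term 0 of the 78 genes passed in either comparison with edgeR, and 16 in R227Q and 23 in H448L had an unadjusted p under 0.05. In the 4LJFHN libraries alone 2 large-subunit genes were higher and 2 lower in R227Q than in WT, and 4 were higher and 0 lower in H448L, while 3 small-subunit genes were higher in each variant. With upper-quartile factors 1 large-subunit gene was lower in H448L and RPL24 did not pass there, and RPSA did not pass in either variant.

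The large-subunit gene RPL9 and the small-subunit genes RPS21 and RPS3A had among the smallest p of their lists. RPS3A stood at 1177, 1137 and 1201 CPM in H448L, 1309, 1164 and 1081 CPM in R227Q, and 1072, 1053 and 927 CPM in WT. Its log2 difference from WT was 0.32 ± 0.04 in H448L (edgeR, adjusted p = 9.0e-06) and 0.28 ± 0.04 in R227Q (edgeR, adjusted p = 2.6e-06). All variant libraries were above all WT libraries, where those of RPL22L1 were below. The nearest were R227Q 3 at 1081 CPM and WT 1 at 1072 CPM, from different submissions. How many of all genes separate in this way was not counted. The larger RPS3A difference was in H448L, whereas that of RPL22L1 was in R227Q. RPL24 stood at 2583, 2716 and 2714 CPM in H448L, 2458, 2496 and 2549.7 CPM in R227Q, and 2830.4, 2797 and 2896 CPM in WT. RPL24 was lower in R227Q by a log2 difference of −0.21 ± 0.03 (edgeR, adjusted p = 5.6e-05), the same direction as RPL22L1 and a smaller size. Ribosomal protein genes have many processed pseudogenes, so their values are uncertain in the way those of RPL22 are.

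**Figure D3:**
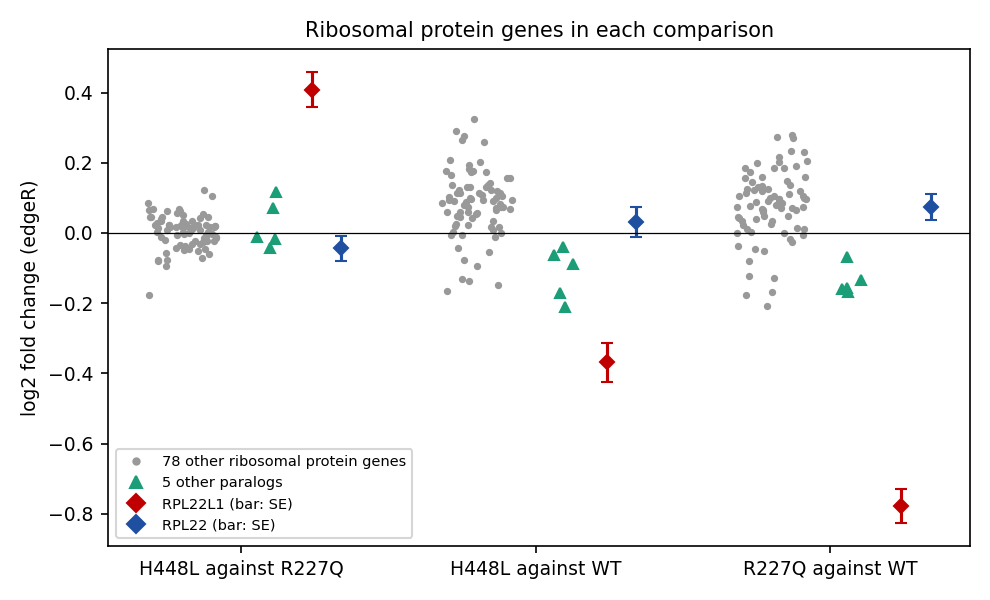
Fitted log2 differences (vertical axis) in the 3 genotype comparisons for 78 other ribosomal protein genes (grey points), 5 other ribosomal protein paralogs (green triangles), RPL22L1 (red) and RPL22 (blue), with SE bars on RPL22L1 and RPL22. RPL22L1 lies outside the grey points in each comparison, at 0.41, −0.37 and −0.78, while RPL22 lies among them.

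Other paralogs of ribosomal proteins moved less than RPL22L1. Of 7 listed, RPL3L and RPL10L did not pass the filter on low counts. In R227Q against WT 4 of the other 5 were lower and RPL26L1, at −0.07, did not pass (median −0.16, with 9.91% of all genes called lower). In H448L against WT 2 were lower, RPL36AL and RPL39L, and 3 did not pass (median −0.09, with 4.99% of all genes called lower). RPL36AL stood at 375, 399 and 398 CPM in H448L, 357, 389 and 387 CPM in R227Q, and 385, 395 and 436 CPM in WT. Its log2 difference was −0.16 ± 0.04 in R227Q (edgeR, adjusted p = 0.0032) and −0.17 ± 0.04 in H448L (edgeR, adjusted p = 0.012) against WT, and neither passed without WT 3. RPL39L differed by −0.17 in R227Q and −0.21 in H448L, and neither passed without R227Q 1, where the R227Q value was −0.08. RPL7L1 at −0.16 and RPS27L at −0.13 passed in R227Q, and at −0.04 and −0.06 did not pass in H448L. Their differences between H448L and R227Q, 0.12 ± 0.04 and 0.07 ± 0.04, did not pass (edgeR, adjusted p = 0.29 and 0.52). Neither passed in R227Q without R227Q 1 or without WT 3. RPL7L1 also lost its call without R227Q 3 or WT 1. None of the 5 passed against WT with no submission term or in 4LJFHN alone with edgeR, and without that term 1 in R227Q and 2 in H448L had an unadjusted p under 0.05.

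The parents of these paralogs, RPL3, RPL7, RPL10, RPL26, RPL36A, RPL39 and RPS27, included 3 that were higher in R227Q than in WT and 0 that were lower (median 0.08, with 7.50% of all genes called higher and 9.91% lower). These were RPL26 at 0.23 ± 0.04 (edgeR, adjusted p = 1.9e-04), RPL39 at 0.19 and RPS27 at 0.15, and none of the 3 passed without R227Q 1. In H448L RPL26 was higher at 0.27 ± 0.05 (edgeR, adjusted p = 5.3e-04) and the other 6 did not pass, with 2.97% of all genes called higher. Their RPL22 counterpart, at 0.07 in R227Q and 0.03 in H448L, lay near the medians of 0.08 and 0.09.

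Factors that assemble the 60S subunit, to which RPL22 and RPL22L1 belong, were partly lower in R227Q. Of 39 genes 13 were lower, 0 higher and 26 did not pass against WT (median −0.12, with 9.91% of all genes called lower). The 13 were GNL3, NOP16, RSL1D1, LSG1, PES1, MRTO4, NMD3, NIP7, GNL2, RRS1, RBM28, SDAD1 and EBNA1BP2. GNL3, a nucleolar GTPase, stood at 95.7, 91.2 and 94.99 CPM in H448L, 113, 88.0 and 84.4 CPM in R227Q, and 143, 139 and 107 CPM in WT, where the first library of R227Q and the first 2 of WT are from SDKYMR. Its log2 difference was −0.32 ± 0.05 in R227Q (edgeR, adjusted p = 6.2e-06). LSG1, a GTPase that acts late on the cytoplasmic 60S particle, differed by −0.37 ± 0.06 in R227Q (edgeR, adjusted p = 6.8e-05). In H448L against WT 3 were lower, LSG1, GNL3 and NMD3, and 36 did not pass (median −0.07), or 7.69% of the list against 4.99% of all genes, and 1 was lower with DESeq2, where LSG1 did not pass. The R227Q count was 6 without WT 3, and the H448L count was 0 without H448L 2, 1 without R227Q 1 and 0 without WT 3. Calls over all genes also fell in these settings, as given above. In H448L against R227Q 0 of 39 passed with edgeR, near the 0.207% of all genes, and 1 with DESeq2, RSL1D1. With edgeR 10 of the 39 had an unadjusted p under 0.05. With no submission term 0 passed against WT, and 10 in R227Q and 5 in H448L had an unadjusted p under 0.05. In 4LJFHN alone 9 were lower in R227Q and 2 in H448L.

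Genes of the 5S particle and its assembly were listed with MDM2, which free RPL5 and RPL11 bind. RPL5 and RPL11 also stand among the large-subunit genes above. In so short a list 22.2% were called higher and 11.1% lower in R227Q against WT, and 11.1% higher in H448L against WT. Of 9 genes RPL11 and RPL5 were higher and RRS1 lower in R227Q than in WT (median 0.03), where 7.50% of all genes were called higher and 9.91% lower. In H448L RPL11 was higher and 8 did not pass (median 0.04), where 2.97% of all genes were called higher. With DESeq2 RRS1 did not pass in R227Q. Without R227Q 1 none of the 9 passed in either comparison, and without WT 3 RPL11 alone passed, in R227Q. Calls over all genes also fell in these settings. MDM4, whose splicing RPL22 is known to affect, had 70.6, 73.1 and 60.7 CPM in H448L, 67.8, 70.2 and 65.3 CPM in R227Q, and 68.1, 64.1 and 65.2 CPM in WT. Its log2 difference from WT was 0.03 ± 0.06 in R227Q (edgeR, adjusted p = 0.76) and 0.04 ± 0.07 in H448L (edgeR, adjusted p = 0.80). Splicing itself was not measured in these gene-level counts. Of the other genes tied to the pair in animals, LIN28B and SMAD2 did not pass, and SMAD1 reached an adjusted p of 0.0498 in R227Q at −0.20 ± 0.07 (edgeR), a call lost without any one of 8 libraries.

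None of the 6 nearest tested genes to RPL22L1 passed the test in H448L against R227Q (edgeR), where 0.207% of all genes passed. EIF5A2, the nearest tested gene at 17932 bases, had 15.9, 12.6 and 14.1 CPM in H448L, 12.4, 15.4 and 13.8 CPM in R227Q, and 15.8, 15.8 and 17.4 CPM in WT. Its log2 difference between H448L and R227Q was −0.03 ± 0.10 (edgeR, adjusted p = 0.96), where RPL22L1 had 0.41. In H448L against WT EIF5A2 was at −0.34 ± 0.11 and did not pass (edgeR, adjusted p = 0.061). It was lower in R227Q than in WT at −0.31 ± 0.10 (edgeR, adjusted p = 0.025) and did not pass without R227Q 1, R227Q 3, WT 1 or WT 3, with DESeq2, with no submission term or in 4LJFHN alone. PRKCI, which encodes an atypical protein kinase C and lies 558894 bases away, was lower than in WT by −0.34 ± 0.06 in H448L (edgeR, adjusted p = 1.5e-04) and −0.28 ± 0.05 in R227Q (edgeR, adjusted p = 7.7e-05), and neither call held with no submission term. SKIL, CLDN11, TNIK and AC092919.1 did not pass in any genotype comparison. None of the 6 nearest tested genes overlaps RPL22L1. RPL22 overlaps AL031847.2 by 12738 bases and RNF207-AS1 by 941 bases on the same strand, and RNF207 by 3915 bases on the other, and whether counting used strand is not given, so reads there cannot be assigned with certainty. Of its neighbours NPHP4 passed, at 0.31 ± 0.10 in R227Q against WT (edgeR, adjusted p = 0.031), a call lost with DESeq2 and without R227Q 1, R227Q 2, WT 1, WT 2 or WT 3. KCNAB2, ICMT and the overlapping genes did not pass between genotypes. In H448L against WT KCNAB2 at 0.51 ± 0.16 and NPHP4 at 0.35 ± 0.12 were close to the threshold (edgeR, adjusted p = 0.0505 and 0.068).

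Genes whose pattern was most like that of RPL22L1 were ranked among 11130 named genes with a mean of at least 5 CPM, by Pearson's r of log2 CPM over the 9 libraries after the fitted submission effect was removed. The points share libraries and genotypes, and the named genes are the extremes of the ranking, so r is a description. The 6 libraries of 4LJFHN are part of the 9, so r over them is not separate support. SRSF5, a splicing factor, was first with r = 0.993 (0.991 over the 6 libraries of 4LJFHN). It had 98.3, 99.95 and 103 CPM in H448L, 109, 88.97 and 87.6 CPM in R227Q, and 133, 129 and 108 CPM in WT. The pseudogene HMGB1P5, SMC4 (a condensin subunit), CTSL (cathepsin L) and CDV3 followed with r from 0.987 to 0.989. The most opposed genes were SHMT2, the mitochondrial serine hydroxymethyltransferase, at −0.994, RPL5 at −0.986, RAMP2 at −0.986, ANGEL1 at −0.981 and RPS6KA2 at −0.981. SHMT2 had 268, 270.0 and 256 CPM in H448L, 340.4, 296 and 294 CPM in R227Q, and 259, 268 and 231 CPM in WT, so within each submission R227Q was highest where RPL22L1 was lowest. For RPL22 the closest genes were KLHL29, OSBPL5, CLUAP1, UQCRC2 and ZNF217, with r from 0.963 to 0.968.

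**Figure D4:**
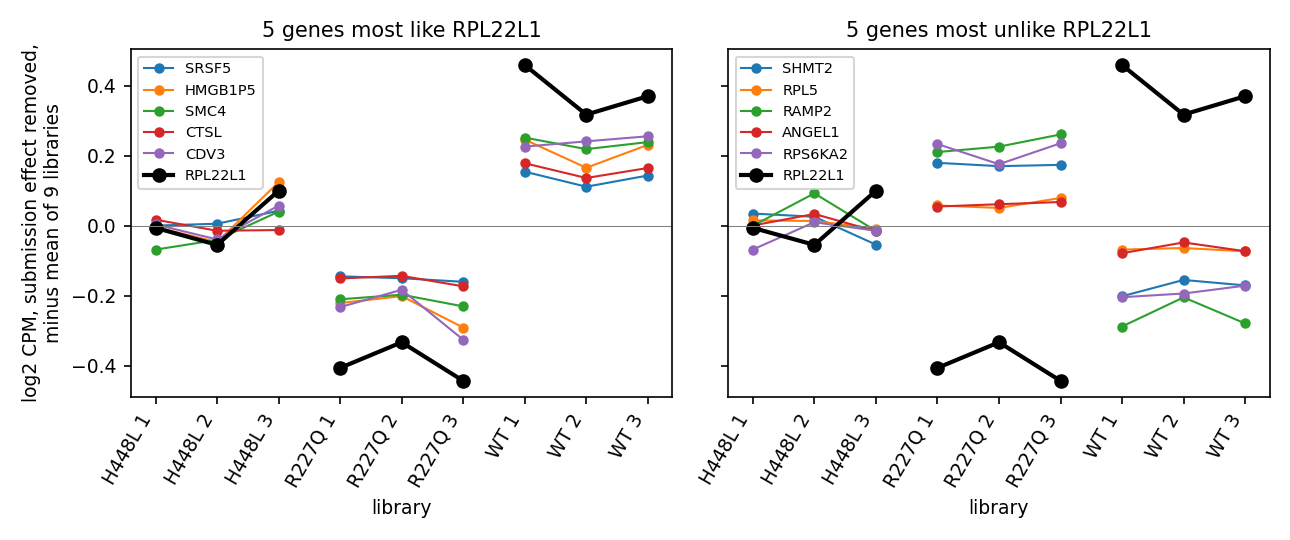
Log2 CPM with the submission effect removed, minus the mean of the 9 libraries (vertical axis), for RPL22L1 (black) and the 5 genes most like it (left) or most opposed to it (right) in H448L, R227Q and WT libraries. RPL22L1 has the widest range of the genes drawn, SRSF5 follows it with r = 0.993 and SHMT2 mirrors it with r = −0.994.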

How the data were processed

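Per the labels' protocols, lysates of 9 Hap1 libraries were sent to a sequencing service for RNA extraction, poly-A capture, second-strand synthesis, tagmentation and amplification. Per the submitters' processing notes, reads were placed on GRCh38. Aligner, counter, annotation release and strand setting were not given in the sources used here. The authors deposited estimated counts per gene without normalization, per the file headers, in 1 table for each submission. The authors also deposited CPM, per the file headers, which equalled the count over the library's total scaled to 1000000, within 3.8e-06. Of 78986 entries in each table, 92 ERCC spike-ins were left out, at most 1.5e-04% of counts. Groups came from the sample titles and submissions from the column names.

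Estimated counts were rounded and kept by filterByExpr with the groups (16908 genes). A model of genotype and submission was fitted to all 9 libraries with edgeR's quasi-likelihood test, TMM factors of 0.969 to 1.02 and 5 residual degrees of freedom, and genes were called where the two-sided p, adjusted by Benjamini-Hochberg over all genes tested, was under 0.05. The common biological coefficient of variation was 2.96%. Standard errors are log2 fold changes divided by the root of F, and 95% intervals follow from them. Differences inside 1 submission compare mean log2 CPM (prior count 2). Versions were DESeq2 1.42.0, limma 3.58.1, edgeR 4.0.16 and R 4.3.3, and the fit was tested on simulated data.

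The members, gene lists and tests were chosen with earlier results of these data known, so no list is independent evidence. Some list members are not reported here. Named genes were all RPL22 entries, SARS2, the called genes of smallest p in each list (short lists in full), the 5 genes most like and most opposed to RPL22L1, the 5 most like RPL22, and the 3 nearest tested genes on each side of both. Small counts of list members are also named in full, which was decided after their values were seen. Alternatives were RLE and upper-quartile factors, other filters, DESeq2, limma-voom, no submission term, 4LJFHN alone, a replicate block and leaving out each library. Adding the pseudogene counts to RPL22 was chosen after seeing the data. Sequences and positions came from GENCODE release 29 on GRCh38. Depth was 9900892 to 12991050 counts per library, and 1 count was 0.0770 to 0.101 CPM.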

Additional observations from a re-analysis of the deposited data

How the results depend on the processing

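RPL22L1 kept its direction under all 18 alternatives. The log2 difference ran from 0.36 to 0.45 for H448L against R227Q, from −0.81 to −0.74 for R227Q against WT and from −0.41 to −0.34 for H448L against WT. For the variants together against WT it ran from −0.67 to −0.61. The correlation of 0 with H448L against R227Q was computed for the main model only. The weights were kept in every alternative, so these values are given without a test. RPL22 was never called between genotypes, with adjusted p from 0.57 to 0.94 for H448L against R227Q, 0.075 to 0.58 for R227Q against WT, 0.21 to 1 for H448L against WT and 0.11 to 0.74 for the variants together. With the pseudogene counts added, a choice made after seeing the data, its log2 differences were −0.05, 0.07, 0.02 and 0.05 in that order.

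The number of genes called moved far more, and the cause was not tested. For H448L against R227Q 35 genes became 122 with every gene with a count, 54 with DESeq2 and 1 with no submission term, and 4 to 91 without one library. For R227Q against WT 2944 became 1557 with DESeq2, 312 with no submission term and 1138 in 4LJFHN alone, and 1093 to 3262 without one library. For H448L against WT 1347 became 694, 147 and 734 under the same settings, and 253 to 1378 without one library. For the variants together 2836 became 1506, 685 and 1197, and 824 to 3066 without one library. With upper-quartile factors the split of higher and lower calls was 1565 and 1335 in R227Q, 584 and 652 in H448L and 1483 and 1302 together, against 1268 and 1676, 503 and 844, and 1198 and 1638 in the main results. With DESeq2 it was 504 and 1053, 160 and 534, and 447 and 1059. With no submission term RPL27 reversed to −0.0243 in H448L.

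Replicate numbers are shared between groups. Same-numbered libraries correlated at −0.398 to 0.123 in their deviations from the model of genotype and submission. That model itself ties some of these deviations together, so the values cannot show whether the numbers pair the libraries. With the replicate block the counts were 31, 2669, 1055 and 2338 in the same order. The log2 differences of RPL22L1 were then 0.41, −0.78, −0.37 and −0.65, and those of RPL22 were −0.06, 0.06, 0.00 and 0.04. In H448L against WT the block left 1 large-subunit gene and 1 assembly factor lower, and RPL24, LSG1, RPL36AL and RPSA did not pass.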
